A study of Mus musculus with 24 samples.

Results

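The endoplasmic reticulum (ER) chaperones and disulfide isomerases were followed as a set of 39 named genes, chosen by function and matched by symbol among the 23991 gene symbols measured. By role, 15 are Hsp70 and Hsp90 chaperones and their cofactors, 12 are disulfide isomerases and oxidases, 5 are prolyl isomerases and 7 belong to the calnexin cycle. RNA was sequenced from C57BL/6 mouse bone marrow cells sorted as granulocyte-macrophage progenitors (GMP) or as LSK cells, a lineage-negative Sca1 and cKit positive gate of stem and multipotent progenitors, with 3 libraries in each of 8 groups. The genotypes were Ern1 fl/fl with VavCre together with Flt3-ITD (labelled IRE1_KO_ITD), Ern1 fl/fl with VavCre (labelled IRE1_KO), Flt3-ITD alone (ITD) and wild type (WT). VavCre drives recombination across blood cells, and Flt3-ITD is an internal tandem duplication in a growth factor receptor that is found in acute myeloid leukaemia. The labels do not say that the libraries of a group came from separate animals, so p-values measure only the spread between libraries, which may be technical.

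Secretory and membrane proteins fold in the ER. Hsp70-type chaperones bind unfolded chains there, lectins hold glycoproteins in the calnexin cycle, isomerases form and shuffle disulfide bonds, and peptidyl-prolyl isomerases turn proline bonds. Ern1 encodes IRE1α, an ER stress sensor whose activated form splices Xbp1 mRNA, and spliced XBP1 and cleaved ATF6 are transcription factors that raise many ER folding genes. Granulocyte progenitors make granule proteins that pass through this compartment.

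A DNA element that ATF6 and XBP1 are known to bind, the ER stress response element (ERSE), stood in some of the promoters. All 8 genes that hold it were higher in WT GMP than in WT LSK. So were 16 of the 24 tested genes whose promoter lacked it, and 19.0% of all genes tested. The sites are shown with that result known, and the part of the element in it was not tested. The search used RefSeq promoters of the GRCm38.p6 build (mm10), from 250 bases before to 50 bases after each start, both strands, and 34 of the 39 genes had an entry. The letters CCAAT, then 9 bases of any kind, then CCACG were found in 8 of these 34 genes (23.5%), against 37 of 27025 genes in the whole table (0.137%). Each site is printed from 5′ to 3′ on the strand that reads CCAAT first, with the element in capitals and 5 bases on either side; a match is only a match of letters.
Hspa5 (chr2:34772020-34772048, plus strand): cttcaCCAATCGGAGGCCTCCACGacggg
Hsp90b1 (chr10:86705528-86705556, plus strand): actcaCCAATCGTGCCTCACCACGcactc
Hsp90b1 (chr10:86705633-86705661, minus strand): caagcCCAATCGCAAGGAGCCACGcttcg
Dnajc3 (chr14:118937822-118937850, plus strand): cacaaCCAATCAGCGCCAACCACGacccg
Creld2 (chr15:88819515-88819543, minus strand): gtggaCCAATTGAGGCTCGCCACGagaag
Pdia6 (chr12:17266486-17266514, plus strand): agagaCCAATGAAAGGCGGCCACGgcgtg
Ero1lb (chr13:12565677-12565705, minus strand): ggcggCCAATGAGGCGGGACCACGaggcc
Calr (chr8:84847070-84847098, plus strand): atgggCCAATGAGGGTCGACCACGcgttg
Canx (chr11:50325795-50325823, minus strand): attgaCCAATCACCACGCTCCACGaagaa

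Hsp90b1 held 2 such sites and the other genes held 1 each, and the sites lay between 47 and 212 bases before the start. In Hspa5 the site overlaps an exon of another annotated Hspa5 transcript. A shorter element, the letters TGACGTG of the unfolded protein response element core, stood in 5 of the 34 genes (14.7%), Hspa5, Mogs, Fkbp11, Txndc5 and Txndc11, against 2.22% of all genes. The letters ATTGG, then 1 base of any kind, then CCACG, known as ERSE-II, stood in Dnajb11 alone of the 34, against 0.0444% of all genes. In the 2 genes below, which had the smallest p of the set between libraries labelled IRE1_KO and WT in GMP, no full element was found; the 150 bases before each start are shown with the element's outer letters CCAAT and CCACG, on either strand, in capitals.
P4hb (chr11:120573254-120573403, minus strand): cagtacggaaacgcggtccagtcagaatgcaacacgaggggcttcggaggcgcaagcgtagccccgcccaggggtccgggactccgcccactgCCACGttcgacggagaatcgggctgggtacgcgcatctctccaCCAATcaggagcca
Ppib (chr9:66060019-66060168, plus strand): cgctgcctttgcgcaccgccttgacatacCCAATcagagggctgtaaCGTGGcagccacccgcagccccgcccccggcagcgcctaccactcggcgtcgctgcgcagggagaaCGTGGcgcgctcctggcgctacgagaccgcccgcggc

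Values were FPKM (fragments of transcript scaled to length and to mapped fragments), a level per length, so genes can be compared with each other. FPKM summed to between 510361 and 673177 per library. Absolute depth is unknown; set against WT LSK replicate 1, relative depths from low FPKM values ran between 0.922 and 1.28. Of the 39 genes, 38 were above 0 in all 24 libraries, and 37 reached 1 FPKM in at least 3 libraries and were tested. Fkbp14, a collagen-related prolyl isomerase, and Uggt2, a glucosyltransferase, stayed under 1 FPKM in every library and were not tested. All 8 GMP markers were higher and all 8 LSK markers lower in WT GMP than in WT LSK by limma, so the sorted populations carried the markers of their labels. By Xist and a Y-linked gene, all ITD libraries were female and every other group held both sexes. The 3 libraries labelled IRE1_KO in LSK alone carry a 1ng tag in their column names, so the tag and the genotype cannot be told apart there. Mir6236, an annotated microRNA gene, stood at 4961, 947 and 4699.8 FPKM in these 3 libraries, against 16608 to 40334 FPKM in every other library.

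Ern1 (chromosome 11) was not lower in the libraries labelled as Ern1 deleted. In GMP it stood at 26.6, 28.5 and 33.2 FPKM in IRE1_KO_ITD and 19.3, 24.5 and 17.9 in IRE1_KO, against 13.9, 11.8 and 16.0 in ITD and 10.4, 9.2 and 7.58 in WT. Its LSK levels were 10.97, 11.5 and 12.9 FPKM in IRE1_KO_ITD and 6.64, 7.52 and 8.71 in IRE1_KO, against 3.73, 7.54 and 7.56 in ITD and 4.74, 4.55 and 3.73 in WT. Since FPKM per gene counts all exons together, these levels are no check on the deletion or on how the libraries were labelled, and genotypes are used here as labelled. Xbp1, the mRNA that IRE1α splices, stood in GMP at 125, 182 and 179.5 FPKM in IRE1_KO_ITD and 148, 114 and 128 in IRE1_KO, against 127, 87.2 and 94.8 in ITD and 110.0, 93.1 and 100.5 in WT. In LSK the Xbp1 levels were 139, 133 and 169.7 FPKM in IRE1_KO_ITD and 52.1, 46.4 and 47.0 in IRE1_KO, against 64.8, 43.9 and 50.1 in ITD and 36.8, 23.2 and 22.5 in WT. FPKM per gene does not separate spliced from unspliced Xbp1.

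ER folding genes were far more abundant in GMP than in LSK before any mutation. In WT the 39 genes together summed to 6571 ± 286 FPKM in GMP and 2740 ± 82.2 FPKM in LSK (SD, n = 3 each), which was 1.04% ± 0.0810 of all FPKM in GMP and 0.513% ± 0.0115 in LSK. Calr, the lectin calreticulin, had the highest level in both populations, at 1354 ± 49.9 FPKM in GMP and 459 ± 22.8 FPKM in LSK. Hspa5, the Hsp70 chaperone BiP, came next at 815 ± 117 FPKM in GMP and 330.3 ± 59.0 FPKM in LSK. In GMP the order went on with P4hb, the classical protein disulfide isomerase, at 606 ± 18 FPKM, then Pdia6 at 461 ± 51.8 and Hsp90b1 (GRP94, the ER Hsp90) at 457 ± 51.4, the last 2 of which did not differ beyond their spread. The lowest tested genes of WT GMP were Dnajc1, a ribosome-associated J protein, at 4.41 ± 0.519 FPKM and Fkbp7 at 4.57 ± 0.414 FPKM, which lay within each other's spread. The plot of shares shows this gap between the populations in each genotype.

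**Figure D1:**
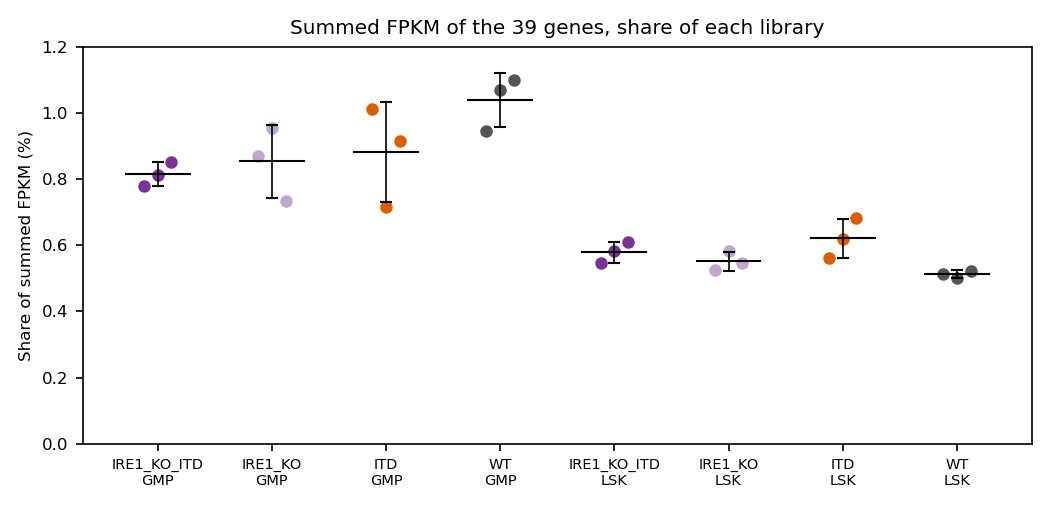
Share of each library's summed FPKM (%) taken by the 39 genes, 1 point per library, with the group mean and SD as bars. WT GMP averaged 1.04% and WT LSK 0.513%, and every GMP library lay above every LSK library.

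Among the 37 tested genes, 28 were higher in WT GMP than in WT LSK, against 19.0% of all 12348 genes tested, and 2 were lower, against 31.3% (limma on log2(FPKM + 1), Benjamini-Hochberg adjusted p under 0.05). The median log2 fold change was 1.15 over the 37 genes and -0.11 over all genes. Libraries did not overlap for 28 genes that lay above and 3 below, against 23.7% and 37.3% of all genes tested. The scale log2(FPKM + 1) understates the change of low genes. In bulk RNA, fewer cells of a type and less RNA per cell cannot be told apart. Basophil, mast and eosinophil genes were also higher in WT GMP, 7 of 7, with a sum of 859.6 to 1963 FPKM in WT GMP, against 36.1 to 91.7 FPKM in WT LSK. Late neutrophil genes were higher in 6 of 9 cases, with a sum of 42553 to 63021 FPKM in WT GMP, against 4924 to 9970 FPKM in WT LSK, and the part of both lists in the result was not tested. All but 1 of the 30 calls kept their side under every alternative tried; Fkbp2 lost its call with quantile normalization (limma adjusted p = 0.0545).

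Disulfide isomerases and oxidases were higher in 11 of 12 cases. P4hb stood at 591, 601 and 626 FPKM in WT GMP, against 183, 169 and 180.4 FPKM in WT LSK, a log2 fold change of 1.77 ± 0.09 (SE, limma adjusted p = 2.93e-11). Ero1l, the oxidase (also named Ero1a) that passes electrons from isomerases to oxygen, stood at 39.7, 38.5 and 40.3 FPKM in WT GMP, against 6.3, 4.49 and 5.6 FPKM in WT LSK. The lowest GMP library of each of these genes lay above the highest LSK library. Ero1l had the largest log2 fold change of the set, 2.66 ± 0.15 (limma adjusted p = 1.79e-10), and its paralog Ero1lb had 1.30 ± 0.11 (limma adjusted p = 3.01e-08), at 9.2, 8.74 and 9.38 FPKM in WT GMP, against 3.4, 3.04 and 2.91 FPKM in WT LSK. Prdx4, the ER peroxiredoxin that uses hydrogen peroxide to form disulfides, was the exception in this role: it stood at 44.7, 48.2 and 52.8 FPKM in WT GMP, against 98.2, 104 and 106 FPKM in WT LSK (log2 fold change -1.07 ± 0.19, limma adjusted p = 0.000146).

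Among the chaperones and cofactors, 10 of 15 were higher in WT GMP and 0 were lower (by limma, 10 and 0 also at an unadjusted p under 0.05). Hsp90b1 stood at 400.1, 499.7 and 472 FPKM in WT GMP, against 118, 91.5 and 115 FPKM in WT LSK (log2 fold change 2.07 ± 0.13, limma adjusted p = 6.72e-10). Dnajc3, a J-domain partner of BiP that also restrains the kinase PERK, stood at 41.1, 39.1 and 43.8 FPKM in WT GMP, against 10.98, 10.04 and 8.44 FPKM in WT LSK (1.97 ± 0.11, limma adjusted p = 1.27e-10). The 3 libraries of each population stayed close together for these genes, and the populations did not overlap. Sdf2l1, which works in a complex with the J protein Dnajb11, stood at 283, 252 and 253 FPKM in WT GMP, against 71.7, 47.4 and 43.5 FPKM in WT LSK (2.29 ± 0.21, limma adjusted p = 4.24e-08). Its relative Sdf2 had a log2 fold change of -0.17 ± 0.12 (limma adjusted p = 0.261). Sil1, an exchange factor for BiP, Cnpy2 and Dnajc1 likewise did not pass the test.

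Dnajb9 did not follow the other J proteins. This BiP partner, which keeps IRE1α inactive in biochemical work and is a well known target of XBP1, stood at 17.4, 25.5 and 22.7 FPKM in WT GMP, against 20.1, 41.2 and 40.3 FPKM in WT LSK (log2 fold change -0.55 ± 0.39, limma adjusted p = 0.252). Its populations overlapped, and its standard error was among the widest of the set. Replicate 1 was its lowest library in both populations, and at each replicate number GMP lay below LSK. The fit took no account of replicate number, and whether the numbers pair libraries is not known. Hspa5 stood at 681, 873 and 892 FPKM in WT GMP, against 269, 334 and 387 FPKM in WT LSK (1.31 ± 0.27, limma adjusted p = 0.000485).

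In the calnexin cycle, 4 of 6 tested genes were higher in WT GMP: Calr by 1.56 ± 0.11, Uggt1, the glucosyltransferase that checks folding, by 1.15 ± 0.10, Canx (calnexin) by 1.10 ± 0.11 and Ganab, the catalytic subunit of glucosidase II, by 0.43 ± 0.10. Calr levels were 1319, 1411 and 1332 FPKM in WT GMP, against 483, 437 and 456 FPKM in WT LSK (limma adjusted p = 2.31e-09). Prkcsh, the other glucosidase II subunit, and Mogs, glucosidase I, did not pass the test. Of the 4 tested prolyl isomerases, Fkbp11 (2.10 ± 0.38), Ppib, which is cyclophilin B (0.69 ± 0.08), and Fkbp2 (0.41 ± 0.12) were higher in WT GMP and Fkbp7 was lower (-0.98 ± 0.17).

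**Figure D2:**
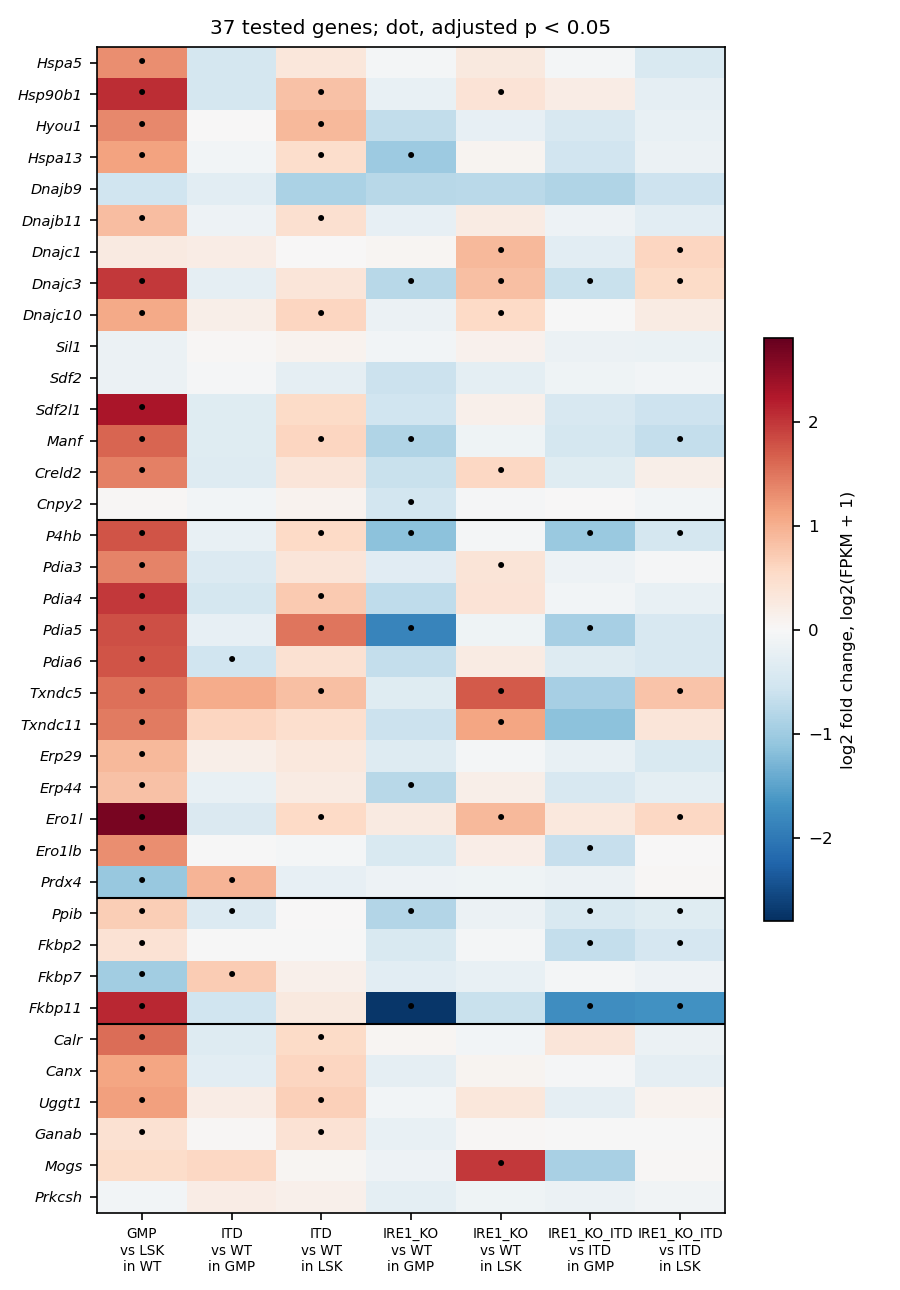
Log2 fold change on the log2(FPKM + 1) scale for the 37 tested genes (rows, in the order chaperones and cofactors, disulfide isomerases and oxidases, prolyl isomerases, calnexin cycle, divided by lines) in 7 comparisons (columns), with a dot where the limma adjusted p was under 0.05. The column of GMP against LSK holds 30 dots and the column of IRE1_KO against WT in GMP 9, all on negative values.

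In LSK, Flt3-ITD went with higher levels across chaperones, isomerases and the calnexin cycle. The summed level of the 39 genes was 3535 ± 328 FPKM in ITD LSK and 2740 ± 82.2 FPKM in WT LSK (SD, n = 3 each). In this comparison 15 of the 37 tested genes were higher in ITD LSK and 0 lower, against 14.9% higher and 7.27% lower of all 11955 genes tested (limma; at an unadjusted p under 0.05, 20 were higher and 2 lower). The median log2 fold change was 0.34 over the 37 genes and 0.08 over all genes. All 3 ITD libraries lay above all 3 WT libraries for 20 genes and below them for 1, against 25.8% and 13.5% of all genes tested.

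Pdia5, a protein disulfide isomerase, moved most. It stood at 16.6, 22.9 and 24.2 FPKM in ITD LSK, against 5.93, 8.03 and 6.62 FPKM in WT LSK (log2 fold change 1.49 ± 0.20, limma adjusted p = 0.00106). P4hb stood at 256, 253 and 277 FPKM in ITD LSK, against 183, 169 and 180.4 FPKM in WT LSK (0.56 ± 0.07, limma adjusted p = 0.000926). Both genes had ITD libraries that lay wholly above WT, and the Pdia5 levels of ITD LSK lay below the WT GMP range of 24.8 to 29.0 FPKM. Txndc5 and Pdia4, thioredoxin-domain isomerases, rose by 0.84 ± 0.19 and 0.74 ± 0.15, and Ero1l by 0.56 ± 0.17.

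Hsp90b1 stood at 179, 193 and 199 FPKM in ITD LSK, against 118, 91.5 and 115 FPKM in WT LSK (log2 fold change 0.82 ± 0.11, limma adjusted p = 0.00121). In the calnexin cycle Uggt1 stood at 13.4, 15.7 and 16.0 FPKM in ITD LSK, against 9.85, 8.41 and 8.92 FPKM in WT LSK (0.67 ± 0.11, limma adjusted p = 0.00233). Canx stood at 127, 141 and 154 FPKM in ITD LSK, against 90.9, 83.8 and 104 FPKM in WT LSK (0.60 ± 0.10, limma adjusted p = 0.00280). None of these ITD libraries overlapped with WT. Calr rose by 0.54 ± 0.11 and Ganab by 0.40 ± 0.09, so 4 of the 6 tested genes of the cycle rose. Other chaperone calls were Hyou1, an exchange factor for BiP (0.90 ± 0.18), Manf, a BiP-binding secreted factor (0.59 ± 0.15), Dnajc10, a J protein with reductase activity (0.60 ± 0.16), Hspa13 (0.49 ± 0.16) and Dnajb11 (0.45 ± 0.14).

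Hspa5 itself was not called in this comparison. It stood at 275, 438 and 556 FPKM in ITD LSK, against 269, 334 and 387 FPKM in WT LSK (log2 fold change 0.31 ± 0.31, limma adjusted p = 0.495), a spread within ITD wider than the gap between groups. Replicate 1 was the lowest library of both groups, and at each replicate number ITD lay above WT. The fit counted that spread as error, and whether the numbers pair libraries is not known. Dnajb9 stood at 12.4, 18.6 and 21.2 FPKM in ITD LSK, against 20.1, 41.2 and 40.3 FPKM in WT LSK (-0.88 ± 0.33, limma adjusted p = 0.0781). Its libraries overlapped, though at each replicate number ITD lay below WT. None of the 4 tested prolyl isomerases was called by limma (0 also at an unadjusted p under 0.05).

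Of the 15 calls in ITD LSK, 9 kept their side under every alternative: Hsp90b1, Hyou1, P4hb, Pdia4, Pdia5, Txndc5, Calr, Canx and Uggt1. Leaving out ITD replicate 3 or WT replicate 2 removed the calls of Manf, Dnajc10, Ero1l, Dnajb11 and Hspa13 (limma adjusted p from 0.0554 to 0.183 over all settings that lost them), and 10 of the 37 genes were then called. Ero1l, Dnajb11 and Hspa13 also lost theirs without ITD replicate 2, Dnajb11 and Hspa13 without ITD replicate 1, Ero1l and Dnajb11 without WT replicate 3, and Hspa13 without WT replicate 1. Markers of mature cells moved the other way in the same libraries: 8 of 9 tested B and plasma cell genes, 9 of 9 late neutrophil genes and 7 of 8 erythroid genes fell in ITD LSK (summed late neutrophil level 476 to 2411 FPKM in ITD LSK, against 4924 to 9970 FPKM in WT LSK). Their part in the result was not tested. ITD libraries were all female; with sex as a covariate 10 genes were higher and 0 lower. Quantile normalization gave 10 higher and 1 lower, and a median-ratio size factor 12 higher and 1 lower. The median log2 fold change over the 37 genes was then 0.22 and 0.24, in place of 0.34. Over all genes, quantile normalization gave 1251 higher and 1116 lower, and a median-ratio size factor 1197 higher and 1236 lower.

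In GMP the picture with Flt3-ITD was different. The summed level of the 39 genes was 5422 ± 542 FPKM in ITD GMP and 6571 ± 286 FPKM in WT GMP (SD, n = 3 each). By limma, 2 of the 37 tested genes were higher in ITD GMP, against 7.37% of all 11249 genes tested, and 2 were lower, against 3.32%; the median log2 fold change was -0.14 over the 37 genes and 0.07 over all genes. ITD libraries lay wholly above WT for 3 genes and wholly below for 11, against 21.8% and 12.5% of all genes tested.

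Prdx4 stood at 91.8, 111 and 82.4 FPKM in ITD GMP, against 44.7, 48.2 and 52.8 FPKM in WT GMP (log2 fold change 0.95 ± 0.20, limma adjusted p = 0.0156). Fkbp7 stood at 7.3, 9.61 and 7.46 FPKM in ITD GMP, against 4.38, 4.28 and 5.04 FPKM in WT GMP (0.71 ± 0.15, limma adjusted p = 0.0152). These are the 2 genes that were lower in WT GMP than in WT LSK. Both comparisons use the same WT GMP libraries, so the 2 results are not independent. Pdia6, an isomerase with an ERSE in its promoter, stood at 326, 292 and 313 FPKM in ITD GMP, against 402, 482 and 499 FPKM in WT GMP (-0.56 ± 0.13, limma adjusted p = 0.0206). Ppib stood at 312, 319 and 301 FPKM in ITD GMP, against 385, 399.8 and 429.7 FPKM in WT GMP (-0.38 ± 0.07, limma adjusted p = 0.0112). Groups did not overlap for any of the 4 genes.

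The 4 calls depended on the settings. With sex as a covariate 0 genes were called (limma adjusted p from 0.0570 to 0.129 over the settings that lost a call), with quantile normalization 1 was higher and 2 were lower, and with a median-ratio size factor 3 were higher and 14 lower. Without WT replicate 2 only 1 call was left, since Pdia6, Prdx4 and Fkbp7 lost theirs; without WT replicate 3 Pdia6 and Ppib lost theirs and 2 were left; Pdia6 also lost its call without ITD replicate 3. Hspa5 stood at 532, 511 and 702 FPKM in ITD GMP, against 681, 873 and 892 FPKM in WT GMP, which overlap (-0.49 ± 0.18, limma adjusted p = 0.0991). Late neutrophil genes summed to between 2423 and 94576 FPKM in ITD GMP, against 42553 to 63021 FPKM in WT GMP; 5 of 8 GMP markers, 6 of 8 erythroid, 4 of 8 tested B and plasma cell and 3 of 7 basophil, mast and eosinophil genes fell in ITD GMP, and the part of these in the result was not tested. ITD replicate 1 stood apart for Txndc5 (163, 70.0 and 81.3 FPKM in ITD GMP, against 54.6, 42.3 and 44.2 in WT GMP) and Mogs (52.8, 12.8 and 11.9 FPKM in ITD GMP, against 17.5, 11.5 and 11.4 in WT GMP), neither of which was called.

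The difference of the ITD effect between GMP and LSK was itself tested. It was negative and past the threshold for 16 of 37 genes, against 7.10% of all 12348 genes tested, and positive for 1, against 6.45%. The largest negative differences were in Pdia5 (-1.72 ± 0.29, limma adjusted p = 0.00186), Hsp90b1 (-1.30 ± 0.19, limma adjusted p = 0.000719) and Pdia4 (-1.23 ± 0.23, limma adjusted p = 0.00310), and the positive one was in Prdx4 (1.17 ± 0.27, limma adjusted p = 0.0108). In all 16 genes the ITD effect was thus less positive or more negative in GMP than in LSK. The 2 effects draw on separate libraries. Under every alternative 10 of the 17 calls kept their side: Hsp90b1, Manf, P4hb, Pdia4, Pdia5, Pdia6, Ero1l, Prdx4, Calr and Canx.

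**Figure D3:**
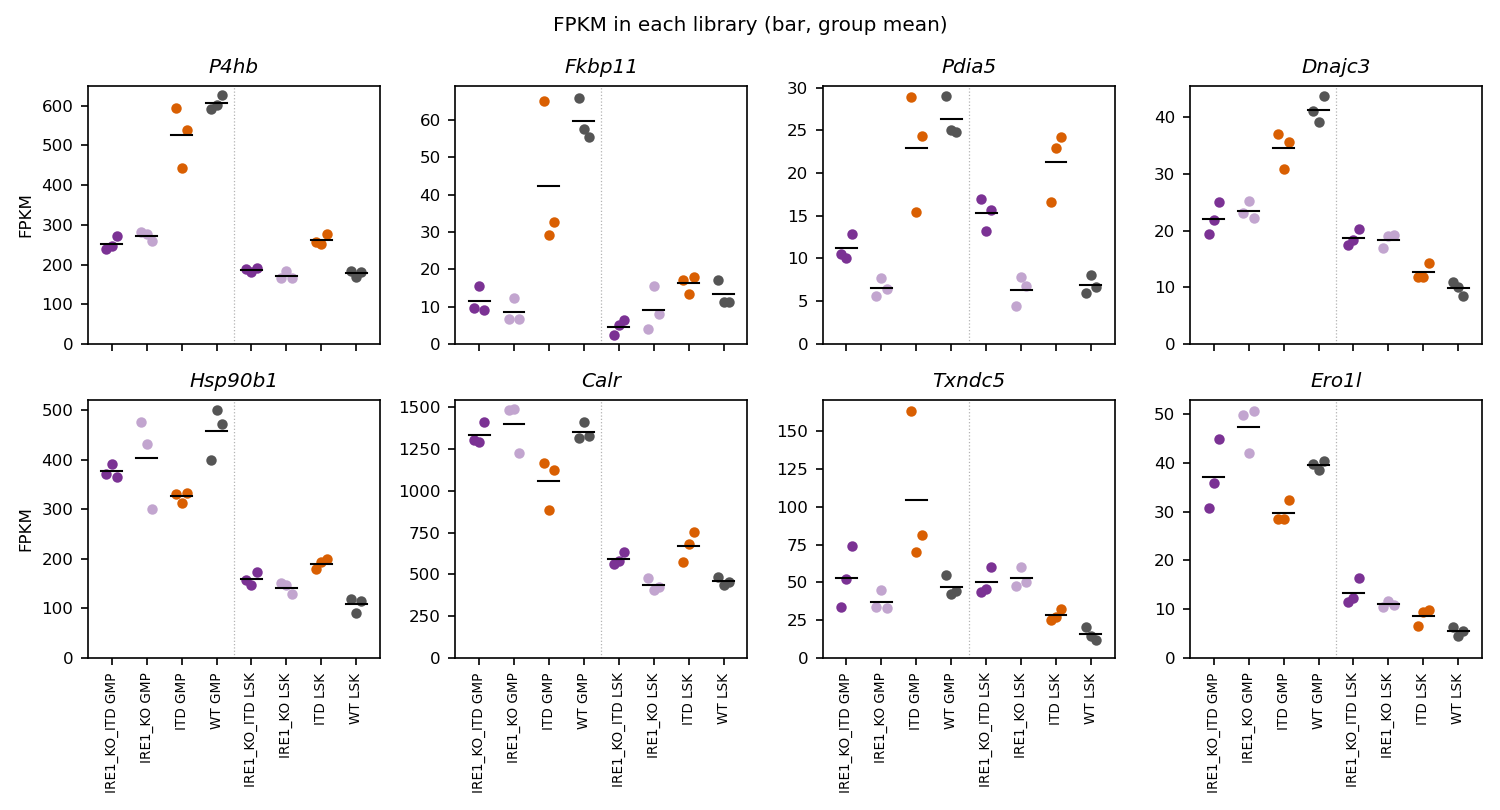
FPKM of 8 of the genes in each library (points) with the group mean (bar), GMP groups left of the dotted line and LSK groups right of it, each panel with its own linear axis from 0. P4hb lies between 239 and 281 FPKM in the GMP libraries with the Ern1 label and between 444 and 626 in the others.

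In GMP, the libraries labelled IRE1_KO held less of a group of isomerases and cofactors, while calreticulin and BiP were not called. Of the 37 tested genes, 9 fell in IRE1_KO GMP and 0 rose, against 0.507% lower and 0.0267% higher of all 11249 genes tested, so that 9 of the 57 genes that fell were members (limma; at an unadjusted p under 0.05, 21 of the 37 were lower and 0 higher). The median log2 fold change was -0.42 over the 37 genes and 0.08 over all genes, and 34 of the 37 values were negative. The summed level was 5184 ± 410 FPKM in IRE1_KO GMP and 6571 ± 286 FPKM in WT GMP (SD, n = 3 each).

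P4hb (chromosome 11, 120560298 to 120573253, GRCm38) stood at 281, 278 and 259 FPKM in IRE1_KO GMP, against 591, 601 and 626 FPKM in WT GMP (log2 fold change -1.15 ± 0.11, limma adjusted p = 0.000818). Pdia5 (chromosome 16, 35397308 to 35490919) stood at 5.61, 7.69 and 6.38 FPKM in IRE1_KO GMP, against 29.0, 25.1 and 24.8 FPKM in WT GMP (-1.86 ± 0.20, limma adjusted p = 0.00181). Erp44, which returns Ero1 oxidases and unassembled clients from the early secretory pathway to the ER, stood at 32.3, 31.5 and 31.0 FPKM in IRE1_KO GMP, against 55.5, 58.0 and 51.0 FPKM in WT GMP (-0.77 ± 0.10, limma adjusted p = 0.00711). For all 3 genes the 2 groups were far apart and the libraries within each group close together. The Pdia5 levels of IRE1_KO GMP overlapped those of WT LSK (5.93 to 8.03 FPKM).

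The widest change of the set was in a prolyl isomerase. Fkbp11 (chromosome 15, 98724368 to 98728198) stood at 6.63, 12.3 and 6.63 FPKM in IRE1_KO GMP, against 65.9, 57.5 and 55.4 FPKM in WT GMP (log2 fold change -2.72 ± 0.32, limma adjusted p = 0.00285). Ppib (chromosome 9, 66060169 to 66066629) stood at 237, 227 and 228 FPKM in IRE1_KO GMP, against 385, 399.8 and 429.7 FPKM in WT GMP (-0.81 ± 0.07, limma adjusted p = 0.000818). In the GENCODE annotation Ppib shares exon bases with Snx22 on the opposite strand, and since the counting strand is not settled its value is uncertain to that extent. The same holds for Pdia3, Pdia6, Erp29, Sdf2, Txndc11, Dnajb9 and Sil1, which share exon bases with other genes on the opposite strand. Hsp90b1, Manf and Pdia4 share exon bases with genes on the same strand, so their values are uncertain whichever strand was counted. P4hb, Pdia5, Erp44, Fkbp11 and Ppib kept their calls under every alternative.

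Among the chaperones and cofactors, 4 of 15 fell. Dnajc3 stood at 23.2, 25.2 and 22.3 FPKM in IRE1_KO GMP, against 41.1, 39.1 and 43.8 FPKM in WT GMP (log2 fold change -0.79 ± 0.11, limma adjusted p = 0.00823). Manf fell by 0.83 ± 0.12, Hspa13, an Hsp70-like ATPase, by 1.01 ± 0.16 and Cnpy2 by 0.51 ± 0.08 on the log2 scale (limma adjusted p = 0.00933, 0.0202 and 0.0210). These 4 calls depended on single libraries. Without IRE1_KO replicate 3 or WT replicate 3, 5 genes were left and all 4 lost their calls, Dnajc3 with a limma adjusted p of 0.0512 to 0.0611 and Manf with 0.0554 to 0.0564; Manf also lost its call without WT replicate 1, Hspa13 without IRE1_KO replicate 1 or WT replicates 1 or 2, and Cnpy2 without any 1 of the 6 libraries.

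Hspa5, Calr and Hsp90b1 were not called. Hspa5 stood at 691, 797 and 855 FPKM in IRE1_KO GMP, against 681, 873 and 892 FPKM in WT GMP (log2 fold change -0.06 ± 0.18, limma adjusted p = 0.914). Calr stood at 1488, 1491 and 1228 FPKM in IRE1_KO GMP, against 1319, 1411 and 1332 FPKM in WT GMP (0.05 ± 0.12, limma adjusted p = 0.898). Hsp90b1 stood at 477, 431 and 301 FPKM in IRE1_KO GMP, against 400.1, 499.7 and 472 FPKM in WT GMP (-0.20 ± 0.15, limma adjusted p = 0.595). The libraries of the 2 groups overlapped for each of these. In the calnexin cycle 0 of 6 tested genes were called by limma (1 lower at an unadjusted p under 0.05).

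Several genes lay lower without passing the adjusted threshold. Creld2, an ER stress inducible protein, stood at 45.3, 51.3 and 45.7 FPKM in IRE1_KO GMP, against 70.9, 73.9 and 74.8 FPKM in WT GMP (log2 fold change -0.62 ± 0.16, limma adjusted p = 0.182). Sdf2l1 stood at 197, 186 and 153 FPKM in IRE1_KO GMP, against 283, 252 and 253 FPKM in WT GMP (-0.56 ± 0.12, limma adjusted p = 0.0880). Dnajb9 stood at 8.21, 14.1 and 15.7 FPKM in IRE1_KO GMP, against 17.4, 25.5 and 22.7 FPKM in WT GMP (-0.77 ± 0.40, limma adjusted p = 0.466). The groups did not overlap in 24 of the 37 genes that lay below and 1 that lay above, against 7.81% and 17.1% of all genes tested. Ero1l was the one above, at 49.7, 42.0 and 50.5 FPKM in IRE1_KO GMP, against 39.7, 38.5 and 40.3 FPKM in WT GMP (0.25 ± 0.13, limma adjusted p = 0.460), while Ero1lb stood at 6.47, 7.17 and 5.98 FPKM in IRE1_KO GMP, against 9.2, 8.74 and 9.38 FPKM in WT GMP (-0.42 ± 0.12, limma adjusted p = 0.236). With a median-ratio size factor 15 genes were lower. In this comparison 0 genes of the 7 marker lists were called by limma (1 each of the LSK, GMP and B cell markers was lower at an unadjusted p under 0.05), and late neutrophil genes summed to between 17609.7 and 85017 FPKM in IRE1_KO GMP, against 42553 to 63021 FPKM in WT GMP.

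The same contrast on the Flt3-ITD background compared 6 other GMP libraries of the same fit. Of the 37 tested genes, 7 fell in IRE1_KO_ITD GMP and 0 rose relative to ITD GMP, against 0.916% of all 11249 genes tested in each direction (limma; at an unadjusted p under 0.05, 15 were lower and 2 higher). The median log2 fold change was -0.29 over the 37 genes and 0.07 over all genes. Libraries did not overlap for 15 genes below and 2 above, against 5.49% and 14.2% of all genes tested. The summed level was 4882 ± 18 FPKM in IRE1_KO_ITD GMP and 5422 ± 542 FPKM in ITD GMP (SD, n = 3 each).

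P4hb stood at 239, 246 and 273 FPKM in IRE1_KO_ITD GMP, against 594, 444 and 539 FPKM in ITD GMP (log2 fold change -1.05 ± 0.11, limma adjusted p = 0.00175). Fkbp11 stood at 9.62, 15.6 and 9.12 FPKM in IRE1_KO_ITD GMP, against 65.1, 29.3 and 32.8 FPKM in ITD GMP (-1.75 ± 0.32, limma adjusted p = 0.0248). Fkbp2, a prolyl isomerase of the ER lumen, stood at 89.6, 90.3 and 95.1 FPKM in IRE1_KO_ITD GMP, against 151, 137 and 149 FPKM in ITD GMP (-0.66 ± 0.09, limma adjusted p = 0.00773). No library of IRE1_KO_ITD reached the lowest ITD library in these genes. Ppib stood at 240.3, 235 and 215 FPKM in IRE1_KO_ITD GMP, against 312, 319 and 301 FPKM in ITD GMP (-0.43 ± 0.07, limma adjusted p = 0.0203). Dnajc3 stood at 19.4, 22.0 and 25.0 FPKM in IRE1_KO_ITD GMP, against 37.1, 30.9 and 35.6 FPKM in ITD GMP (-0.62 ± 0.11, limma adjusted p = 0.0217). Ero1lb fell by 0.64 ± 0.12 and Pdia5 by 0.93 ± 0.20 on the log2 scale (limma adjusted p = 0.0277 and 0.0480).

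Of the 7 calls, P4hb alone survived the loss of any 1 library, and a fit of the 6 libraries alone called 0 of the 37 genes (P4hb limma adjusted p = 0.0841). Without ITD replicate 3 only P4hb was left. Without IRE1_KO_ITD replicate 1, 2 genes were left, since Dnajc3, Pdia5, Ero1lb, Ppib and Fkbp11 lost their calls. Without IRE1_KO_ITD replicate 3 or ITD replicate 2, 4 genes of the 37 were called, and Ero1lb, Ppib and Fkbp11 lost theirs; Pdia5 also lost its call without IRE1_KO_ITD replicate 3 and, with Dnajc3, without IRE1_KO_ITD replicate 2 (limma adjusted p from 0.0505 to 0.237 over all settings that lost a call). Late neutrophil genes summed to between 1492 and 15098 FPKM in IRE1_KO_ITD GMP, against 2423 to 94576 FPKM in ITD GMP; 0 of their 9 genes were called by limma (0 at an unadjusted p under 0.05), and their part in the result was not tested. With the replicate number as a block 2 genes were called, and with sex as a covariate 1.

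Between these 2 comparisons, which share no library, 5 called genes were the same: P4hb, Pdia5, Dnajc3, Ppib and Fkbp11, which is 5 of the 9 and 5 of the 7. Log2 fold changes were negative in both for 32 of the 37 genes. The difference between the 2 effects was tested in the GMP fit and called 0 of the 37 genes and 0.00% of all 11249 genes by limma (5 of the 37 positive and 0 negative at an unadjusted p under 0.05), and the replicates allow no statement that the effects were equal. Calr had a log2 fold change of 0.34 ± 0.12 in IRE1_KO_ITD GMP against ITD GMP (1306, 1292 and 1411 FPKM in IRE1_KO_ITD, against 1170.1, 884 and 1128 FPKM in ITD; limma adjusted p = 0.173).

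**Figure D4:**
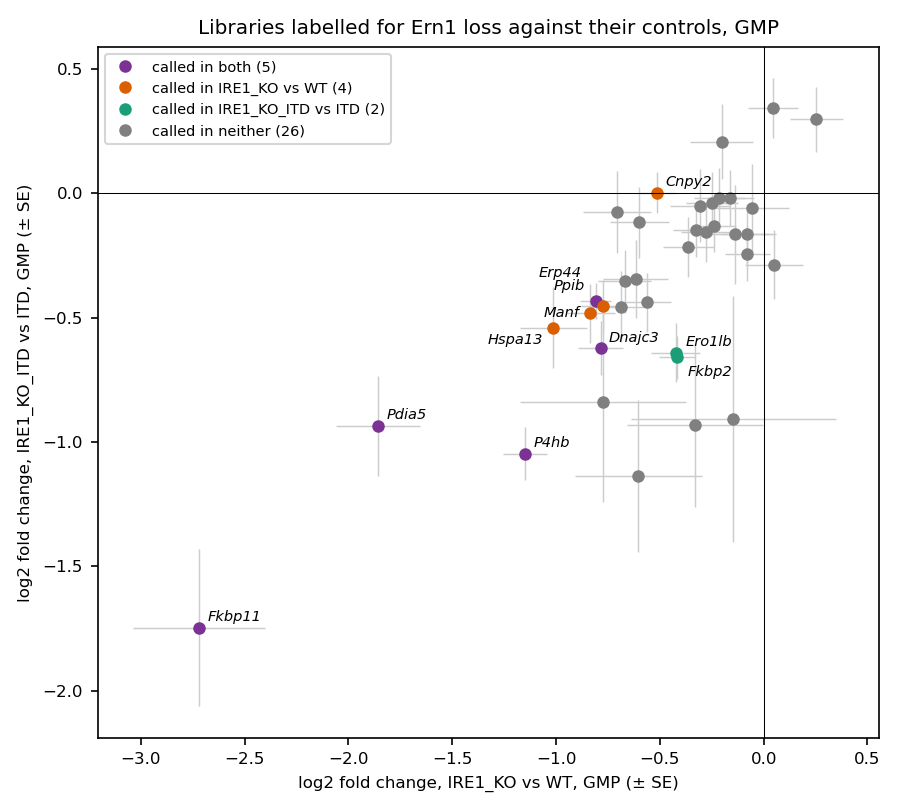
Log2 fold change (log2(FPKM + 1), ± SE) of the 37 tested genes in GMP, with IRE1_KO against WT on the x axis and IRE1_KO_ITD against ITD on the y axis, coloured by limma call. The 5 genes called in both lie at negative values on both axes, from Fkbp11 at -2.72 and -1.75 to Ppib at -0.81 and -0.43.

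In LSK, calls in the libraries labelled IRE1_KO lay near the shares over all genes. The 1ng tag is confounded there and Mir6236 was low in the same 3 libraries, and the part of both in the result was not tested. Here 10 of the 37 tested genes were higher in IRE1_KO LSK and 0 lower, against 21.0% higher and 2.72% lower of all 11955 genes tested, and the median log2 fold change was 0.11 over the 37 genes and 0.14 over all genes (limma; at an unadjusted p under 0.05, 12 were higher and 2 lower). Libraries did not overlap for 12 genes above and 1 below, against 29.7% and 6.25% of all genes tested. The split of calls moved with the scaling: quantile normalization gave 6 higher and 4 lower and a median-ratio size factor 6 higher and 3 lower, with the median of all genes shifted by -0.22 and -0.17 on the log2 scale. The median log2 fold change over the 37 genes was then -0.10 and -0.08.

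Txndc5 stood at 47.6, 60.4 and 50.5 FPKM in IRE1_KO LSK, against 20.3, 14.6 and 12.02 FPKM in WT LSK (log2 fold change 1.72 ± 0.19, limma adjusted p = 6.19e-05). Mogs, which removes the outermost glucose of the glycan before the calnexin cycle, stood at 34.3, 36.2 and 44.1 FPKM in IRE1_KO LSK, against 12.9, 8.96 and 6.1 FPKM in WT LSK (1.97 ± 0.25, limma adjusted p = 0.000154). Dnajc1 stood at 8.12, 7.02 and 7.31 FPKM in IRE1_KO LSK, against 4.13, 3.64 and 2.89 FPKM in WT LSK (0.91 ± 0.12, limma adjusted p = 0.000266). Txndc5 shares exon bases with Bmp6 and a predicted gene, and Dnajc1 with Mllt10, all on the opposite strand, so their values are uncertain to that extent.

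Dnajc3 stood at 16.9, 19.1 and 19.2 FPKM in IRE1_KO LSK, against 10.98, 10.04 and 8.44 FPKM in WT LSK (log2 fold change 0.85 ± 0.12, limma adjusted p = 0.000300). Txndc11, a thioredoxin-domain protein of the ER membrane, stood at 10.1, 11.5 and 13.1 FPKM in IRE1_KO LSK, against 6.34, 5.03 and 3.4 FPKM in WT LSK (1.11 ± 0.19, limma adjusted p = 0.00122). Ero1l stood at 10.5, 11.6 and 10.9 FPKM in IRE1_KO LSK, against 6.3, 4.49 and 5.6 FPKM in WT LSK (0.90 ± 0.17, limma adjusted p = 0.00247). These 6 genes kept their calls under every alternative and did not overlap between groups. Dnajc10, Hsp90b1, Creld2 and Pdia3 lost theirs without WT replicate 2, which left 6 genes called; Hsp90b1 and Pdia3 also did without IRE1_KO replicate 1 or 2, Dnajc10 without IRE1_KO replicate 1 or 3 or WT replicate 1, Creld2 without IRE1_KO replicate 2 or 3 or WT replicate 3, and Pdia3 without WT replicate 1 or 3 (limma adjusted p from 0.0543 to 0.391 over all settings that lost them). P4hb, which fell in GMP, stood at 165, 185 and 167 FPKM in IRE1_KO LSK, against 183, 169 and 180.4 FPKM in WT LSK, with interleaved libraries (-0.04 ± 0.07, limma adjusted p = 0.725).

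The IRE1_KO effect was lower in GMP than in LSK for 19 of 37 genes and higher for 0, against 4.12% and 0.988% of all 12348 genes tested (limma; at an unadjusted p under 0.05, 25 and 0). The smallest p belonged to Dnajc3 (-1.63 ± 0.16, limma adjusted p = 1.40e-05), which fell in GMP and rose in LSK, and P4hb (-1.11 ± 0.12, limma adjusted p = 7.37e-05). The difference rests on the 1ng libraries and cannot be told apart from them. Quantile normalization left 11 genes lower, as did leaving out WT GMP replicate 3 or IRE1_KO LSK replicate 2.

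IRE1_KO_ITD LSK libraries carry no 1ng tag and were set against ITD LSK. Of the 37 tested genes, 4 were higher, against 13.3% of all 11955 genes tested, and 5 were lower, against 6.96%. The median log2 fold change was -0.17 over the 37 genes and 0.06 over all genes. IRE1_KO_ITD libraries lay wholly above ITD for 6 genes and wholly below for 13, against 24.0% and 16.4% of all genes tested. With quantile normalization 1 was higher and 4 lower, and with a median-ratio size factor 3 and 9.

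P4hb stood at 189, 180.4 and 191 FPKM in IRE1_KO_ITD LSK, against 256, 253 and 277 FPKM in ITD LSK (log2 fold change -0.48 ± 0.07, limma adjusted p = 0.00217), and its highest IRE1_KO_ITD library was at 191 FPKM, against 183 FPKM for the highest WT LSK library. Manf stood at 27.4, 33.1 and 36.5 FPKM in IRE1_KO_ITD LSK, against 49.0, 51.4 and 53.2 FPKM in ITD LSK (-0.66 ± 0.15, limma adjusted p = 0.0118). Both genes kept their calls under every alternative, without overlap between groups. Fkbp11 stood at 2.31, 5.15 and 6.3 FPKM in IRE1_KO_ITD LSK, against 17.2, 13.5 and 17.9 FPKM in ITD LSK (-1.69 ± 0.39, limma adjusted p = 0.0141), and Ppib and Fkbp2 fell by 0.33 ± 0.09 and 0.47 ± 0.14 on the log2 scale.

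Dnajc3 went up rather than down. It stood at 17.4, 18.3 and 20.4 FPKM in IRE1_KO_ITD LSK, against 11.9, 11.8 and 14.4 FPKM in ITD LSK (log2 fold change 0.53 ± 0.12, limma adjusted p = 0.0114). Dnajc1 stood at 5.4, 5.9 and 6.56 FPKM in IRE1_KO_ITD LSK, against 3.3, 3.72 and 3.76 FPKM in ITD LSK (0.60 ± 0.12, limma adjusted p = 0.00837). Txndc5 and Ero1l rose by 0.80 ± 0.19 and 0.58 ± 0.17. All 4 were also higher in IRE1_KO LSK than in WT LSK, where the 1ng tag is confounded. No library compared here carries it, but the spread came from a fit of all 12 LSK libraries, the tagged ones included. Quantile normalization removed the calls of Dnajc1 (limma adjusted p = 0.0580), Dnajc3 (limma adjusted p = 0.0521) and Ero1l. Ero1l lost its call in 9 of 14 settings, also without the 1ng libraries. Without IRE1_KO_ITD replicate 3, 4 genes were left and Dnajc3, Txndc5, Ero1l, Ppib and Fkbp2 lost their calls (Txndc5 limma adjusted p = 0.0607, Dnajc3 0.0521); Ero1l also lost its call without IRE1_KO_ITD replicate 2 or ITD replicate 1 or 2, Ppib and Fkbp2 without IRE1_KO_ITD replicate 1 or any 1 ITD library, Fkbp2 without IRE1_KO_ITD replicate 2, and Fkbp11 without IRE1_KO_ITD replicate 1 (limma adjusted p = 0.0507). Late neutrophil genes fell in 5 of 9 cases and summed to 114 to 394 FPKM in IRE1_KO_ITD LSK, against 476 to 2411 FPKM in ITD LSK; their part in the result was not tested.

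The IRE1_KO effect in LSK with Flt3-ITD, less that without, was negative and past the threshold for 3 genes, Mogs (-1.94 ± 0.35), Hsp90b1 (-0.65 ± 0.16) and P4hb (-0.44 ± 0.10), with limma adjusted p of 0.0116, 0.0340 and 0.0292, and positive for 0, against 5.58% and 1.36% of all 11955 genes tested (limma; 12 and 0 at an unadjusted p under 0.05). This value uses the 1ng libraries. With the replicate number as a block, Hsp90b1 and P4hb lost their calls (limma adjusted p = 0.0511 and 0.0504) and Mogs kept its call. It was 0 genes with sex as a covariate, and 1 to 6 genes when a library was left out: 6 without ITD replicate 1, IRE1_KO replicate 3 or WT replicate 1, and 1 without IRE1_KO_ITD replicate 1 or 2, ITD replicate 2 or 3, IRE1_KO replicate 2 or WT replicate 2.

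Within the Ern1-labelled libraries the ITD contrast called few genes in GMP. In IRE1_KO_ITD GMP against IRE1_KO GMP, 4 of 37 genes were higher, against 8.47% of all 11249 genes tested, and 0 were lower, against 4.50% (limma; 9 and 3 at an unadjusted p under 0.05). They were Fkbp7 (0.96 ± 0.15), Cnpy2 (0.43 ± 0.08), Prdx4 (0.92 ± 0.20) and Pdia5 (0.69 ± 0.20), with limma adjusted p of 0.00273, 0.00832, 0.0139 and 0.0477. Fkbp7 and Prdx4 were also the 2 genes that were higher in ITD GMP than in WT GMP, in other libraries of the same fit. With quantile normalization 4 were higher and 1 lower, and with a median-ratio size factor 4 and 4. Fkbp7 stood at 9.31, 8.06 and 6.2 FPKM in IRE1_KO_ITD GMP, against 3.54, 3.5 and 3.44 FPKM in IRE1_KO GMP. Without IRE1_KO_ITD replicate 1 or 2 or IRE1_KO replicate 1 or 3, 2 genes were left, Prdx4 and Pdia5 being lost (limma adjusted p from 0.0525 to 0.142 over all settings that lost a call); Pdia5 was also lost without IRE1_KO_ITD replicate 3 or IRE1_KO replicate 2. Erythroid markers fell in 7 of 8 cases in IRE1_KO_ITD GMP, tested B and plasma cell genes in 6 of 8, basophil, mast and eosinophil genes in 5 of 7, GMP markers in 3 of 8 and late neutrophil genes in 2 of 9. The late neutrophil sum was 1492 to 15098 FPKM in IRE1_KO_ITD GMP, against 17609.7 to 85017 FPKM in IRE1_KO GMP, and the part of these markers in the result was not tested. In LSK the same contrast, which uses the 1ng libraries, gave 5 higher, against 11.7% of all 11955 genes tested, and 1 lower, against 19.6%: Pdia5 (1.17 ± 0.20), Hyou1 (0.93 ± 0.18), Uggt1 (0.46 ± 0.11), Calr (0.44 ± 0.11) and Ganab (0.37 ± 0.09) were higher and Mogs (-1.88 ± 0.25) lower by limma. There 9 of 9 late neutrophil, 8 of 9 tested B and plasma cell and 7 of 8 erythroid genes fell, the late neutrophil sum being 114 to 394 FPKM in IRE1_KO_ITD LSK, against 4694 to 11722 FPKM in IRE1_KO LSK, and their part in the result was not tested.

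Against WT, the doubly altered libraries held fewer of these transcripts in GMP, while in LSK genes were called on both sides, nearer the shares over all genes. In IRE1_KO_ITD GMP against WT GMP, 16 of 37 genes were lower and 2 higher, against 5.87% and 16.6% of all 11249 genes tested. P4hb (-1.26 ± 0.11, limma adjusted p = 9.36e-05), Ppib (-0.81 ± 0.07, limma adjusted p = 0.000137) and Dnajc3 (-0.88 ± 0.11, limma adjusted p = 0.000723) had the smallest p, and Fkbp11 (-2.32 ± 0.32) the largest change; these 4 kept their calls under every alternative. With a median-ratio size factor 21 were lower and 0 higher. The WT libraries are those of the comparisons above. In the same GMP libraries 7 of 8 erythroid, 6 of 7 basophil, mast and eosinophil, 5 of 8 GMP, 4 of 8 tested B and plasma cell and 4 of 9 late neutrophil markers fell. The late neutrophil sum was 1492 to 15098 FPKM in IRE1_KO_ITD GMP, against 42553 to 63021 FPKM in WT GMP, and the basophil, mast and eosinophil sum 168 to 247 FPKM in IRE1_KO_ITD GMP, against 859.6 to 1963 FPKM in WT GMP. Their part in the result was not tested.

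In IRE1_KO_ITD LSK against WT LSK, 15 were higher and 5 lower, against 30.4% and 12.9% of all 11955 genes tested, with Txndc5 (1.63 ± 0.19), Ero1l (1.14 ± 0.17) and Pdia5 (1.05 ± 0.20) the largest rises and Dnajb9 (-1.46 ± 0.33), Fkbp11 (-1.41 ± 0.39), Fkbp2 (-0.47 ± 0.14), Sdf2 (-0.33 ± 0.10) and Ppib (-0.32 ± 0.09) lower by limma. Dnajb9 stood at 8.27, 16.3 and 9.93 FPKM in IRE1_KO_ITD LSK, against 20.1, 41.2 and 40.3 FPKM in WT LSK (limma adjusted p = 0.00487), without overlap. Fkbp11 lost its call without IRE1_KO_ITD replicate 1 or WT replicate 1, Fkbp2 without IRE1_KO_ITD replicate 2 or 3 or WT replicate 1, Sdf2 without IRE1_KO_ITD replicate 1 or 3 and Ppib without IRE1_KO_ITD replicate 1 (limma adjusted p from 0.0527 to 0.0827). With a median-ratio size factor 11 genes were higher and 6 lower, and the median log2 fold change of the 37 genes was -0.06 in place of 0.09. Among the higher genes, Creld2, Pdia4, Calr, Canx and Hyou1 lost their calls under at least 1 alternative, Creld2 under 11 of 14. Of the 20 calls, 11 kept their side under every alternative. Late neutrophil genes fell in 9 of 9 cases, with a sum of 114 to 394 FPKM in IRE1_KO_ITD LSK, against 4924 to 9970 FPKM in WT LSK. Tested B and plasma cell genes fell in 8 of 9 cases and erythroid genes in 7 of 8, and the part of these markers in the result was not tested.

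Other protein quality control genes gave a frame for these counts. In IRE1_KO GMP against WT GMP, 1 of 36 tested genes of a list of other ER folding and redox genes fell (Lman1, a cargo receptor), 1 of 28 ER-associated degradation genes fell (Vimp), and 0 of 31 cytosolic and 0 of 10 mitochondrial chaperones were called by limma (2 and 0 at an unadjusted p under 0.05). In ITD LSK against WT LSK, 6 of 40 other ER folding genes were higher and 2 lower and 7 of 28 degradation genes were higher, while 15 of 31 cytosolic chaperones (Hsph1, Hspa8 and Cct6a with the smallest p) and 5 of 10 mitochondrial chaperones were higher. In WT GMP against WT LSK, 16 of 40 other ER folding genes were higher and 7 lower, 12 of 28 degradation genes were higher and 3 lower, 10 of 31 cytosolic chaperones were higher and 3 lower, and 4 of 10 mitochondrial chaperones were higher and 0 lower. The list of other ER folding and redox genes summed to 1401 ± 72.6 FPKM in WT GMP and 1032 ± 22.4 FPKM in WT LSK (SD, n = 3 each). That was 0.222% of all FPKM in WT GMP and 0.193% in WT LSK. The differences between these lists were not tested.

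The 8 genes with an ERSE were set beside the 24 tested genes whose promoter entry lacked one. In WT GMP against WT LSK all 8 were higher, with log2 fold changes from 1.10 to 2.07, against 16 higher and 2 lower of the 24. In IRE1_KO GMP against WT GMP, 1 of the 8 fell (Dnajc3) and 6 of the 24 fell, with medians of -0.34 and -0.37. In IRE1_KO_ITD GMP against ITD GMP, 2 of the 8 fell (Dnajc3 and Ero1lb) and 5 of the 24. In ITD LSK against WT LSK, 3 of the 8 rose (Hsp90b1, Canx and Calr) and 9 of the 24. Counts of this size describe these genes and were not tested against each other.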

How the data were processed

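The authors deposited 1 FPKM value per gene symbol and library; the tools named for them per the submitters' processing notes are STAR and Cufflinks, with the mm10 build, without versions. Per the labels, one protocol text names SMART-Seq v4 with Nextera XT and another a stranded TruSeq kit, which was not settled. The 39 genes, the gene lists and the tests were chosen with earlier results of these data known. The test was limma 3.58.1 (R 4.3.3), moderated with a trend, on log2(FPKM + 1), with 12 libraries of 1 population in a fit, or all 24 across populations. Genes reaching 1 FPKM in 3 or more libraries of the fit entered, and p was adjusted over all of these genes by the Benjamini-Hochberg method within each of 15 comparisons (threshold 0.05). Named genes were any called member, with values per library for up to 5 called members of smallest p, and for 11 fixed genes. The procedure was tested on simulated data. Alternatives, tried singly, were quantile normalization, median-ratio size factors, a pseudocount of 0.1, no filter on low values, a replicate block, only the libraries compared, sex as a covariate, and leaving out the 1ng libraries or each replicate. Relative depth came from the commonest ratio of low values to those of WT LSK replicate 1. Sequences and promoters are from RefSeq (GRCm38.p6). Tables and figures used Python 3.11.15, numpy 2.4.6, pandas 2.3.3 and matplotlib 3.10.9.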

Additional observations from a re-analysis of the deposited data

Results flagged for a closer look

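For 39 results a difference between effects passed limma's test of that difference. The effect of Flt3-ITD (log2, GMP minus LSK) was lower in GMP for Hsp90b1 (-1.30), Hyou1 (-0.88), Dnajb11 (-0.59), Dnajc3 (-0.59), Manf (-0.93), P4hb (-0.78), Pdia3 (-0.71), Pdia4 (-1.23), Pdia5 (-1.72), Pdia6 (-0.99), Erp44 (-0.42), Ero1l (-0.96), Ppib (-0.39), Calr (-0.90), Canx (-0.88) and Uggt1 (-0.45), and higher for Prdx4 (1.17), with limma adjusted p from 0.000719 to 0.0473.

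The effect labelled IRE1_KO (log2, GMP minus LSK) was lower in GMP for Hspa13 (-1.10), Dnajc1 (-0.86), Dnajc3 (-1.63), Dnajc10 (-0.72), Manf (-0.72), Creld2 (-1.19), Cnpy2 (-0.48), P4hb (-1.11), Pdia3 (-0.69), Pdia4 (-1.08), Pdia5 (-1.74), Pdia6 (-0.89), Txndc5 (-2.05), Txndc11 (-1.71), Erp44 (-0.94), Ero1lb (-0.61), Ppib (-0.64), Fkbp11 (-2.09) and Mogs (-2.12), with limma adjusted p from 1.40e-05 to 0.0431. All of these use the LSK libraries with the 1ng tag, from which the genotype cannot be told apart.

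The effect labelled IRE1_KO in LSK, with Flt3-ITD minus without, was lower for Hsp90b1 (-0.65), P4hb (-0.44) and Mogs (-1.94), with limma adjusted p from 0.0116 to 0.0340; it uses the same tagged libraries.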

How the results depend on the processing

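Of 171 calls over the comparisons, 103 kept their side under every alternative and 0 changed sign; of 2548 pairs of a call and an alternative, 407 lost the call. Counts of called members moved by over 1.5 times as follows, beside their own main counts. A median-ratio size factor gave 17 in place of 4 for ITD against WT in GMP, 15 in place of 9 for IRE1_KO against WT in GMP, 11 in place of 7 for IRE1_KO_ITD against ITD in GMP and 8 in place of 4 for IRE1_KO_ITD against IRE1_KO in GMP. Quantile normalization gave 5 in place of 9 for IRE1_KO_ITD against ITD in LSK, 11 in place of 7 in GMP, and 11 in place of 19 for the IRE1_KO effect in GMP minus LSK. Both scalings gave 1 in place of 3 for the IRE1_KO effect with ITD minus without in LSK. Sex as a covariate gave 0 there, 0 for ITD against WT in GMP and 1 for IRE1_KO_ITD against ITD in GMP. Only the libraries compared gave 6 for IRE1_KO against WT in LSK and 0 for IRE1_KO_ITD against ITD in GMP. The cause was not tested. Scaling moved the median of all genes by over 0.1 (log2) in 6 comparisons, most for IRE1_KO against WT in LSK (-0.219 with quantile normalization).

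Leaving out 1 library gave 30 to 31 calls for GMP against LSK, 10 to 17 for ITD against WT in LSK and 1 to 6 in GMP, 6 to 9 for IRE1_KO against WT in LSK and 5 to 8 in GMP, 4 to 8 for IRE1_KO_ITD against ITD in LSK and 1 to 8 in GMP, 6 to 8 for IRE1_KO_ITD against IRE1_KO in LSK and 2 to 6 in GMP, and 15 to 20 for IRE1_KO_ITD against WT in LSK and 14 to 17 in GMP. It gave 12 to 18 for the ITD effect and 11 to 17 for the IRE1_KO effect in GMP minus LSK, and 1 to 6 in LSK and 0 to 1 in GMP for the IRE1_KO effect with ITD minus without.

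The replicate numbers were not taken as pairs. In LSK, replicate 1 was the lowest library of each genotype for both Hspa5 and Dnajb9. The correlations below run over many genes at once and do not show this for single genes. Correlations of same-numbered deviations ran from -0.372 to 0.0931 between genotypes in GMP and from -0.123 to 0.114 in LSK. Between LSK and GMP of 1 genotype they ran from -0.100 to 0.236, with 5 of 12 above 0.1; those of ITD (0.198, 0.105 and 0.147) were all above it, and those of WT (0.135, 0.0502 and 0.0505), IRE1_KO and IRE1_KO_ITD were not. With the number as a replicate block the count for IRE1_KO_ITD against ITD in GMP was 2 in place of 7, and it was 30, 14, 4, 9, 7 and 10 for GMP against LSK, ITD against WT (LSK, GMP), IRE1_KO against WT (LSK, GMP) and IRE1_KO_ITD against ITD in LSK. It was 15 in place of 17 and 18 in place of 19 for the ITD and IRE1_KO effects in GMP minus LSK. For the IRE1_KO effect with ITD minus without in LSK it was 2 in place of 3, and Hsp90b1 and P4hb lost their calls.

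Absolute depth is unknown, and 3 libraries a group limit the precision of low genes.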
